A study of Mus musculus with 18 samples.

Results

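Fetub, Vnn3, Serpinb1a, Cd1d1, Frzb, Obp2a, Nrep, Ms4a10 and Xrra1 are 9 genes whose RNA was low in the adrenal glands of intact male mice and many times higher in those of castrated males and of females. They were chosen by name, from these same arrays and for this pattern, and every probe annotated to them was taken. That gave 10 of the 45281 probes of the array and 9 of the 10375 genes tested. All 10 probes passed the filter on dim probes, which asked for a detection p-value under 0.01 on at least 3 arrays. Because the choice rested on the differences between intact males, castrated males and females, those differences are given as a description and support nothing. The effect of the Ephb6 knockout on the 9 genes was tested. It is not known whether wild-type arrays, knockout arrays or both served the choice. The tests of the knockout use the same arrays, so they may not be independent of it. This holds most for the differences between knockout effects, which are built from the differences between conditions in each genotype. The working name of the set speaks of repression by androgen. No hormone level is stated and no group had androgen given back, so the genes are called here by their pattern alone.

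Total RNA of whole adrenal gland from C57BL/6N mice of 2 months was measured on Illumina bead arrays, 1 array per sample. There were 6 groups of 3 arrays: intact males, castrated males and females, each either wild type or knockout for Ephb6, a receptor of the Eph family that binds ephrins on neighbouring cells. The sources used here do not state the age at castration, the time since, or which part of Ephb6 was deleted. Nor do the labels tie each sample to an animal of its own, so the spread behind every p-value may be technical.

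The adrenal cortex makes steroid hormones and surrounds a medulla of catecholamine-producing cells. In mice the innermost cortex holds the X-zone, a layer of fetal origin that regresses in males at puberty and in females during the first pregnancy, and that castration is known to preserve or bring back. Testicular androgens are known to drive its loss in males. The 9 genes belong to no single family. Fetub encodes fetuin-B, a protease inhibitor of the cystatin superfamily that is made mainly in liver and keeps the coat of the unfertilized egg from hardening. Serpinb1a encodes an intracellular inhibitor of the serine proteases of neutrophils. Vnn3 belongs to the vanins, enzymes that release pantothenate and cysteamine from pantetheine. Cd1d1 presents lipids to natural killer T cells, Frzb is a secreted antagonist of Wnt ligands, and Obp2a is an odorant-binding protein of the lipocalin family. Nrep, also known as P311, is a small intracellular protein named for neuronal regeneration, Ms4a10 belongs to a family of proteins with several membrane spans, and Xrra1 is named for an effect on the response to X-rays.

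The promoters are shown because they are the sequence that the 9 genes could have in common. Windows of 250 bases before a RefSeq start were searched for 6 of them (Fetub, Vnn3, Frzb, Obp2a, Ms4a10 and Xrra1). There were 7 such windows, on the GRCm38.p6 build. No window of Serpinb1a, Cd1d1 or Nrep was searched, so the counts below do not cover these genes. That is a limit of the search and says nothing of whether they have a RefSeq start. The 5 windows that held a match to a searched motif are printed 5′ to 3′ on the strand of the gene, with the match in capitals.
Fetub, first start, chr16:22918132-22918381, plus strand: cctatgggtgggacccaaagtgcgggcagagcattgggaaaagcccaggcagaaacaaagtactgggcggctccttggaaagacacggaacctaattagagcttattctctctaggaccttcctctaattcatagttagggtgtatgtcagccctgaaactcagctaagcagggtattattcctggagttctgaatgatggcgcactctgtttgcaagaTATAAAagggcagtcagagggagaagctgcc
Fetub, second start, chr16:22919972-22920221, plus strand: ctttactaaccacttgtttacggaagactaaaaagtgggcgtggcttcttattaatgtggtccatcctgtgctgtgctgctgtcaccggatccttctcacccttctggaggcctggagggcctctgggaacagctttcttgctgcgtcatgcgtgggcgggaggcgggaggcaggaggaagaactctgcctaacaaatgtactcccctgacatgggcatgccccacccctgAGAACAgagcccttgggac
Vnn3, chr10:23851212-23851461, plus strand: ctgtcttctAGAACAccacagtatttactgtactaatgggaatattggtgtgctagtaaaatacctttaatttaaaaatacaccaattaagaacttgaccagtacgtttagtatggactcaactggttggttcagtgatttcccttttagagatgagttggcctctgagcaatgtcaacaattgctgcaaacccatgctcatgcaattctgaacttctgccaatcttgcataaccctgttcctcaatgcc
Obp2a, chr2:25699824-25700073, plus strand: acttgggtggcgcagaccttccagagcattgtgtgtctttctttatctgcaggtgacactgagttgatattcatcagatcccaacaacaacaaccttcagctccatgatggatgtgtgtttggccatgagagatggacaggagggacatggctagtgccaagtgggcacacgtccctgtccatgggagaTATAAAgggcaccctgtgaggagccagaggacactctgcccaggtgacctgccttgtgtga
Ms4a10, chr19:10974701-10974950, minus strand: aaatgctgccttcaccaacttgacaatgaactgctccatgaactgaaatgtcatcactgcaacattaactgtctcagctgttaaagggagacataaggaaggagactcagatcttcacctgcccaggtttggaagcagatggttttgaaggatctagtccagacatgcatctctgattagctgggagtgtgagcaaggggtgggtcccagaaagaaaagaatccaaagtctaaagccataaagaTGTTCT
The search covered 4 motifs. AGAACA, the half-site bound by androgen and glucocorticoid receptors, was read on both strands and stood in 3 of the 7 windows, those of the second Fetub start, Vnn3 and Ms4a10 (there as TGTTCT on the printed strand). It stood in 16.1% of all 32851 promoter windows of the same length and in 10.9% of the 10778 windows of tested genes. The matches began 19, 241 and 6 bases before the start. The palindrome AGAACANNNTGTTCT, which contains that half-site on both strands, stood in 0 of the 7 windows and in 3 of all windows. AAGGTCA, the core bound by the steroidogenic factor Nr5a1, was read on both strands and stood in 0 of the 7 windows, against 4.08% of all windows and 2.75% of those of tested genes. TATAAA, the TATA box, was read on the printed strand only and began 31 bases before the first Fetub start and 61 bases before the Obp2a start, against 7.59% of all windows and 4.05% of those of tested genes. The windows of Frzb (64.4% G and C) and Xrra1 (64.0%) held none of the 4 motifs, and the median over all windows was 52.4% G and C. A match is a run of letters and not a bound site.

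A single library stood apart: castrated knockout array 1 had a mean bead signal of 244 and detected 27.8% of its probes, where the other 17 arrays had 446 to 640 and detected 34.6% to 37.9%. It and knockout female array 1 had the lowest weights of a fit with array weights (0.16 and 0.28). Ephb6 itself averaged 6.00, 6.76 and 6.77 in log2 intensity in wild-type intact males, castrated males and females and 5.44, 5.35 and 5.30 in the knockouts, a mean difference of -1.14 (SE 0.15, limma adjusted p = 0.00481). The place of its probe relative to the deletion is not known, so this checks the labels only in part. All levels below are log2 intensities after background correction and quantile normalization. The 3 values of a group are given in the order of the labels' replicate numbers, and levels of different probes are not set against each other.

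Fetub lay at 6.08, 6.09 and 5.85 in wild-type intact males and at 5.76, 6.03 and 6.11 in knockout ones. In castrated males it lay at 10.54, 10.09 and 10.32 in wild type and 10.68, 10.34 and 9.69 in knockout. In females it lay at 11.03, 11.39 and 9.88 in wild type and 10.54, 9.82 and 9.76 in knockout. All 6 intact males were low and close together, and the other 4 groups overlapped each other well above them. Wild-type castrated males were 4.31 above intact males (SE 0.31, 19.9-fold) and wild-type females 4.76 (SE 0.31, 27.2-fold). Without background correction the castrated male difference was 2.80. The highest intact male array was 3.58 below the lowest of the 12 other arrays.

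Serpinb1a, the other protease inhibitor, was near background in intact males. It lay at 6.62, 5.14 and 5.31 in wild-type intact males, where 1 of 3 arrays detected it, and at 4.96, 5.54 and 5.89 in knockout ones, where 2 of 3 did. It reached 10.25, 9.87 and 9.96 in wild-type castrated males and 10.60, 9.95 and 9.76 in knockout ones. Females lay at 10.04, 10.52 and 10.16 in wild type and at 9.81, 9.76 and 10.13 in knockout. The 12 arrays of castrated males and females spanned less than the 6 intact male arrays did. In wild type the differences from intact males were 4.33 in castrated males and 4.55 in females (SE 0.32 each).

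Vnn3, the pantetheinase relative, was detected on all 18 arrays by the probe used. It lay at 7.73, 7.37 and 6.49 in wild-type intact males and at 5.79, 7.21 and 8.45 in knockout ones. It lay at 11.78, 11.23 and 11.61 in wild-type castrated males, 11.59, 11.72 and 11.37 in knockout ones, 11.79, 12.03 and 11.66 in wild-type females and 11.58, 11.17 and 11.60 in knockout females. The spread was thus in the low groups, with an SD of 1.33 in knockout intact males against 0.18 in knockout castrated males. A second Vnn3 probe stayed within 0.03 to 0.43 of the first on every array, although it was not detected on knockout intact male array 1. Wild-type castrated males stood 4.34 and females 4.63 above intact males (SE 0.43 each).

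Cd1d1, the lipid-presenting molecule, lay at 8.69, 8.36 and 8.22 in wild-type intact males and at 7.72, 8.51 and 8.61 in knockout ones. It lay at 12.96, 12.22 and 12.63 in wild-type castrated males, at 12.13, 12.68 and 12.39 in knockout ones, and at 12.72, 12.95 and 12.74 in knockout females. Wild-type females lay at 12.92, 12.65 and 13.0. Of the 9 genes it followed their common pattern most closely. Its mean absolute distance from the median profile of the 9 was 0.13 over 18 arrays, where a profile is the level on each array minus the mean of the 6 intact male arrays. The differences from intact males in wild type were 4.18 in castrated males and 4.43 in females (SE 0.22 each).

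Frzb, the Wnt antagonist, was detected on 1 of 3 intact male arrays in each genotype. It lay at 5.49, 4.51 and 4.93 in wild-type and 5.48, 4.64 and 4.78 in knockout intact males. Castrated males lay at 8.94, 8.74 and 8.99 in wild type and at 8.90, 9.17 and 9.39 in knockout, and females at 9.50, 9.06 and 9.51 in wild type and at 9.34, 9.78 and 9.17 in knockout. All 12 of these arrays detected it. The wild-type differences from intact males were 3.91 in castrated males and 4.38 in females (SE 0.26 each).

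Obp2a, the lipocalin, was detected on 0 of 3 wild-type intact male arrays (4.65, 4.76 and 4.65) and on 1 of 3 knockout ones (4.68, 5.74 and 4.71). It lay at 9.80, 9.49 and 9.49 in wild-type castrated males and at 10.73, 11.39 and 9.93 in knockout ones. Females were the most variable group, at 10.96, 7.69 and 8.40 in wild type and 7.97, 9.91 and 10.53 in knockout. Their SDs of 1.72 and 1.34 compare with 0.18 in wild-type castrated males. With no wild-type intact male array above background the difference is a bound: castrated males were at least 16.9-fold and females at least 11.4-fold higher. The female bound rests on wild-type female array 1 and was 5.82-fold without it. Such a bound sets the mean of the brighter group against, on each dim array, the higher of the probe's own level and the lowest level of any detected probe. It applies to background-corrected levels alone, here and below. Without that correction the castrated male difference of Obp2a was 2.52 in log2, smaller than the bound.

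Nrep lay at 8.94, 9.64 and 9.67 in wild-type intact males and at 9.51, 10.06 and 9.61 in knockout ones. It lay at 13.77, 13.15 and 13.68 in wild-type castrated males, at 13.10, 13.60 and 13.08 in knockout ones, at 13.61, 13.90 and 13.48 in wild-type females and at 13.39, 13.47 and 13.44 in knockout females. All 18 arrays detected it. In wild type its differences from intact males were 4.12 in castrated males and 4.25 in females (SE 0.21 each). Without background correction the castrated male difference was 3.87.

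Ms4a10 lay at 7.46, 6.18 and 6.21 in wild-type and 5.99, 5.50 and 6.43 in knockout intact males. Here castrated males were intermediate, at 9.15, 9.31 and 9.0 in wild type and 9.72, 8.64 and 8.96 in knockout, while females lay at 10.03, 9.77 and 10.28 in wild type and 11.17, 10.50 and 10.37 in knockout. The highest castrated male array lay below the lowest female array. Wild-type castrated males were 2.54 and females 3.42 above intact males (SE 0.33 each).

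Xrra1 was detected on none of the 6 intact male arrays, which lay between 4.65 and 5.04. It lay at 8.08, 7.97 and 6.72 in wild-type castrated males and at 9.49, 8.10 and 8.57 in knockout ones. Females lay at 8.69, 8.29 and 9.55 in wild type and at 10.37, 9.15 and 8.85 in knockout. Against wild-type intact males, castrated males were at least 4.23-fold and females at least 10.1-fold higher after background correction. These bounds were 3.57-fold without wild-type castrated array 1 and 7.88-fold without wild-type female array 3. Without background correction the castrated male difference was 1.07 in log2, smaller than its bound.

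**Figure D1:**
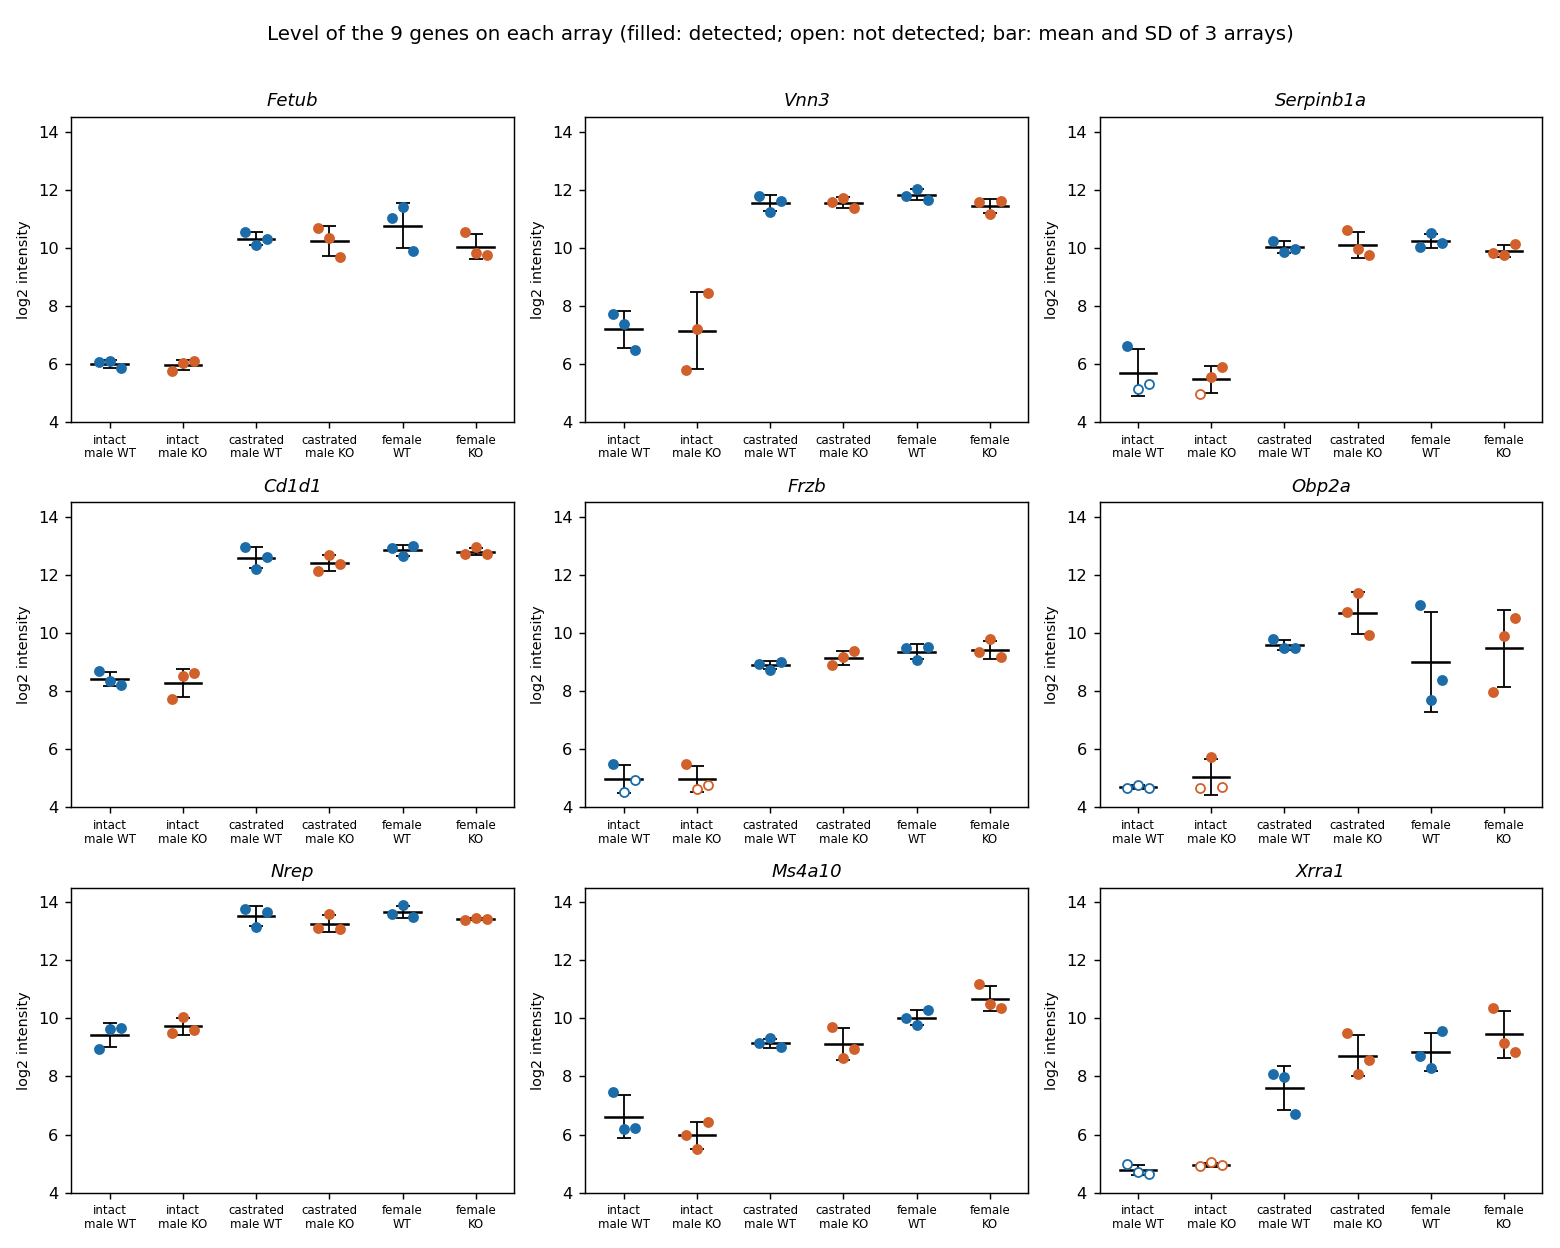
Level of each of the 9 genes in log2 intensity (vertical axis) on each of the 18 arrays, by group along the horizontal axis. Points are arrays (filled where detected, open where not), and bars are the mean and SD of 3 arrays. In each panel both intact male groups lie below the 4 other groups, the open points lie in intact males alone, and the spread of Obp2a in females stands out.

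Side by side, the wild-type differences between castrated and intact males ran from 2.54 (Ms4a10) to 4.34 (Vnn3). Those between females and intact males ran from 3.42 (Ms4a10) to 4.76 (Fetub). These ranges cover the 7 genes detected on at least 1 wild-type intact male array. Serpinb1a and Frzb were detected on only 1 of those 3 arrays. Without background correction their castrated male differences were 2.60 and 1.88. With Obp2a and Xrra1 at their bounds the medians over the 9 were 4.12 and 4.38, against -0.03 and -0.02 over all genes. Both sets share the 3 wild-type intact male arrays. In knockout adrenals the castrated males were 3.13 (Ms4a10) to 5.64 (Obp2a) and the females 3.70 (Nrep) to 4.71 (Ms4a10) above intact males. These ranges cover the 8 genes detected on at least 1 knockout intact male array. Obp2a was detected on 1 of those 3 arrays, and its 5.64 was 3.41 without background correction. Xrra1, detected on none, was at least 9.76-fold higher in knockout castrated males and 16.3-fold in knockout females. All 9 genes were called higher (limma adjusted p under 0.05) in each of these 4 comparisons. Of all genes 4.61% were called higher and 6.1% lower in wild-type castrated males, and 5.31% higher and 4.82% lower in wild-type females. In knockout the shares were 7.45% and 10.1% in castrated males and 5.52% and 4.77% in females. Since the genes were chosen for these differences, nothing is read from that count. The gap between the highest intact male array and the lowest of the 12 other arrays ran from 1.18 in Ms4a10 to 3.58 in Fetub, and 3.28% of all genes had a gap in that direction.

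The differences between females and castrated males are also a description, since the genes were chosen for being high in both. A missing call does not show that the groups are alike. In wild type 0 of the 9 were called between females and castrated males (0.328% of all genes), with differences from -0.57 (Obp2a) to 1.25 (Xrra1). In Xrra1 (1.25, SE 0.42), Ms4a10 (0.87, SE 0.33) and Frzb (0.47, SE 0.26) every wild-type female array lay above every wild-type castrated male array. The Xrra1 difference was 0.82 without wild-type castrated array 3. In knockout adrenals 1 of the 9, Ms4a10, was called higher in females (1.58, SE 0.33), against 1.02% of all genes called higher. The Ms4a10 call was lost without knockout female array 1 (1.33) and without castrated knockout array 2 or array 3 (1.34 and 1.50). Xrra1 differed by 0.74 in knockout, with overlapping groups, and by 0.28 without knockout female array 1, 1.12 without castrated knockout array 1 and 0.43 without castrated knockout array 2. Obp2a differed by -0.57 in wild type and -1.21 in knockout (SE 0.66 each), and the groups overlapped. Single female arrays set these values. In wild type the difference was -1.54 without female array 1, 0.09 without female array 2 and -0.27 without female array 3, and in knockout it was -0.46 without female array 1. For Fetub, Vnn3, Serpinb1a, Cd1d1, Frzb and Nrep, each of the 4 groups of females and castrated males overlapped the next in the order of their means. Groups further apart in that order could be separate. For Cd1d1 every knockout female array lay above every knockout castrated male array (0.40, SE 0.22). For Vnn3 and Nrep every knockout female array lay below every wild-type female array (-0.38, SE 0.43, and -0.23, SE 0.21). None of these 3 differences was called.

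**Figure D2:**
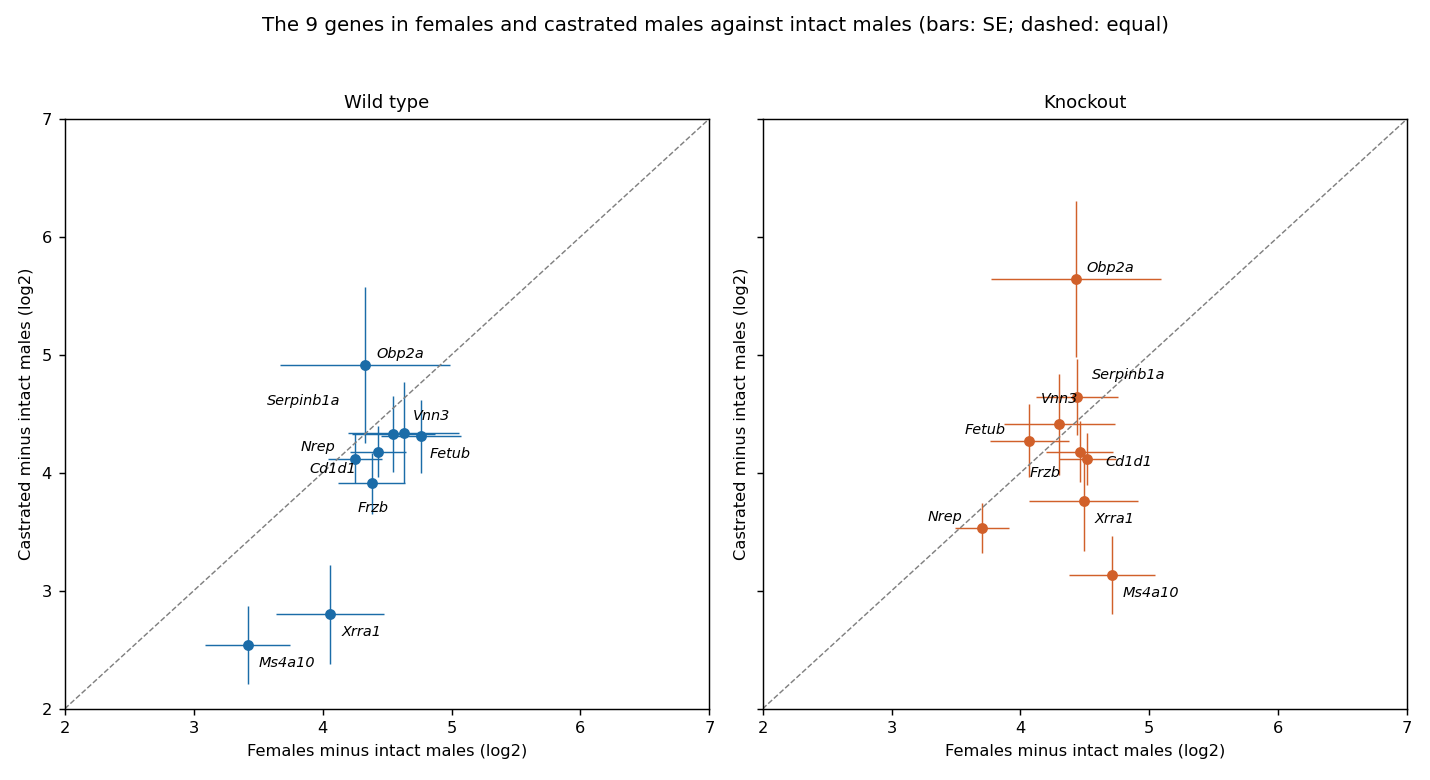
Difference of females (horizontal axis) and of castrated males (vertical axis) from intact males, both in log2, for the 9 genes in wild type and knockout. Bars are the SE of the fit, the dashed line marks equal differences, and fitted values are plotted for genes given as a bound in the text. Ms4a10 and Xrra1 lie below the line in both genotypes and Obp2a above it, with the longest bars.

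The arrays also stood apart in markers of the X-zone, and these moved with the 9 genes. Akr1c18, which degrades progesterone and defines the X-zone, was detected on none of the 6 intact male arrays and averaged 13.60 in wild-type castrated males and 13.65 in wild-type females, at least 273-fold and 282-fold higher. Pik3c2g, a lipid kinase and another X-zone marker, was at least 22.5-fold and 17.5-fold higher, and Cyp2f2, a cytochrome P450 of the inner cortex, 7.52 and 8.14 higher in log2. The summed level of the 3 markers, in linear intensity above the offset, was 57.9 to 74.9 on intact male arrays and 21000 to 43700 on all others. In whole glands, more cells of a type and more RNA per cell cannot be told apart, and the part of the X-zone in the 9 differences was not tested.

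Markers of other cell types were also called. Beside the counts below, 4.61% of all genes were called higher and 6.1% lower in wild-type castrated males. The shares were 5.31% and 4.82% in wild-type females, 7.45% and 10.1% in knockout castrated males, and 5.52% and 4.77% in knockout females. The summed level of the adrenal cortex markers was 59100 to 63100 in wild-type intact males, 77800 to 90200 in castrated males and 69500 to 77900 in females. Of the 10 tested 4 were called higher in wild-type and 7 in knockout castrated males, and 2 in wild-type and 3 in knockout females, with 1 lower in wild-type females. The 4 became 2 without wild-type castrated array 1, the 1 lower ran from 0 to 2 over the arrays left out, and with median scaling the 4, 7, 2 and 3 became 1, 1, 0 and 1. Of 10 medulla markers tested 3 were called lower in castrated males in wild type and 8 in knockout, with summed levels of 66500 to 86500 in wild-type intact males and 53300 to 58900 in castrated males, and 78400 to 90100 and 37900 to 48100 in knockout ones. The 3 became 5 without knockout female array 1 and 0 with median scaling.

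Of 8 endothelial markers 5 were lower in wild-type and 4 in knockout castrated males, and 1 in wild-type females. With median scaling the 5 became 1 and the 1 in females became 0. The 5 became 3 without castrated array 1 or 3 and 2 without intact male array 2 of wild type, the 4 became 1 without castrated array 1 or intact male array 3 and 2 without intact male array 2 of knockout, and the 1 was lost without wild-type female array 2 or 3 or intact male array 2 or 3. Of 9 macrophage markers 4 were lower in knockout castrated males, and in wild type 1 was higher and 0 lower. That 1 was lost with median scaling, and without wild-type castrated array 1 or 3 or intact male array 1 or 2. Of 7 markers of gonadal-type cells 3 were higher in knockout castrated males, a count of 0 or 1 without any 1 of 13 arrays, and 1 was lower in wild-type castrated males and in wild-type females (0 to 2 in females over the arrays left out). Of the 10 liver markers, 4 (Alb, Apob, Fga and Fgb) were detected on no array and 6 on some, with a summed level of 390 to 939 in wild-type intact males, 528 to 1080 in castrated males and 242 to 360 in females. Of 8 neutrophil markers 4 (Camp, Mmp8, Mpo and Ngp) were detected on no array and 4 on some, with sums of 156 to 613, 144 to 201 and 143 to 233. Of 8 lymphocyte markers with a probe 4 (Cd4, Cd8a, Klrb1c and Ptprc) were detected on no array and 4 on some, with sums of 141 to 202, 208 to 215 and 166 to 277. No gene of these last 3 lists was called against intact males in either genotype. The part of these cells in the 9 differences was not tested.

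Relatives of the 9 genes were mostly not detected or not called. Of 48 family members listed, 11 passed the filter on dim probes. Of these, 3 were called higher and 0 lower in wild-type castrated males and likewise in wild-type females, with a median difference of 0.33 and 0.05. Of all genes 4.61% and 5.31% were called higher in these comparisons, with medians of -0.03 and -0.02. In knockout 4 were higher and 2 lower in castrated males, where 7.45% and 10.1% of all genes were. In knockout females 3 were higher and 0 lower, where 5.52% and 4.77% of all genes were. The 2 lower became 1 without any 1 of 13 arrays. The kininogens, cystatin-superfamily proteins that release bradykinin and lie beside Fetub on chromosome 16, accounted for 2 of the 3. Kng1 was detected on 1 of 3 wild-type intact male arrays and lay 3.43 higher in wild-type castrated males (SE 0.41, limma adjusted p = 2.35e-05) and 3.54 higher in females (adjusted p = 1.33e-05). Kng2, detected on none of the intact male arrays, was at least 4.11-fold higher in castrated males (adjusted p = 2.38e-05) and at least 4.84-fold higher in females (adjusted p = 6.9e-06). Both kininogens were also called in the 2 knockout comparisons. They are close copies, and whether their probes tell them apart was not tested.

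Ahsg, or fetuin-A, the neighbour of Fetub on its other side and its relative by name, did not follow it. It averaged 7.70 in wild-type intact males, 8.45 in castrated males and 7.07 in females, and differences of 0.76 (limma adjusted p = 0.311) and -0.63 (adjusted p = 0.436) did not pass. The probes of Hrg, another cystatin-superfamily gene, and of Vnn1, Cd1d2, Serpinb1b, Serpinb1c, Obp2b and Sfrp4 were detected on no array, and that of Sfrp2 on 1. Serpinb6a, a relative of Serpinb1a, was 0.52 higher in wild-type castrated males (SE 0.11, adjusted p = 0.00368) and 0.45 higher in females (adjusted p = 0.00977). Sfrp1, a Wnt antagonist related to Frzb, averaged 8.31 in wild-type intact males, 7.91 in castrated males and 7.96 in females, without a call.

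**Figure D3:**
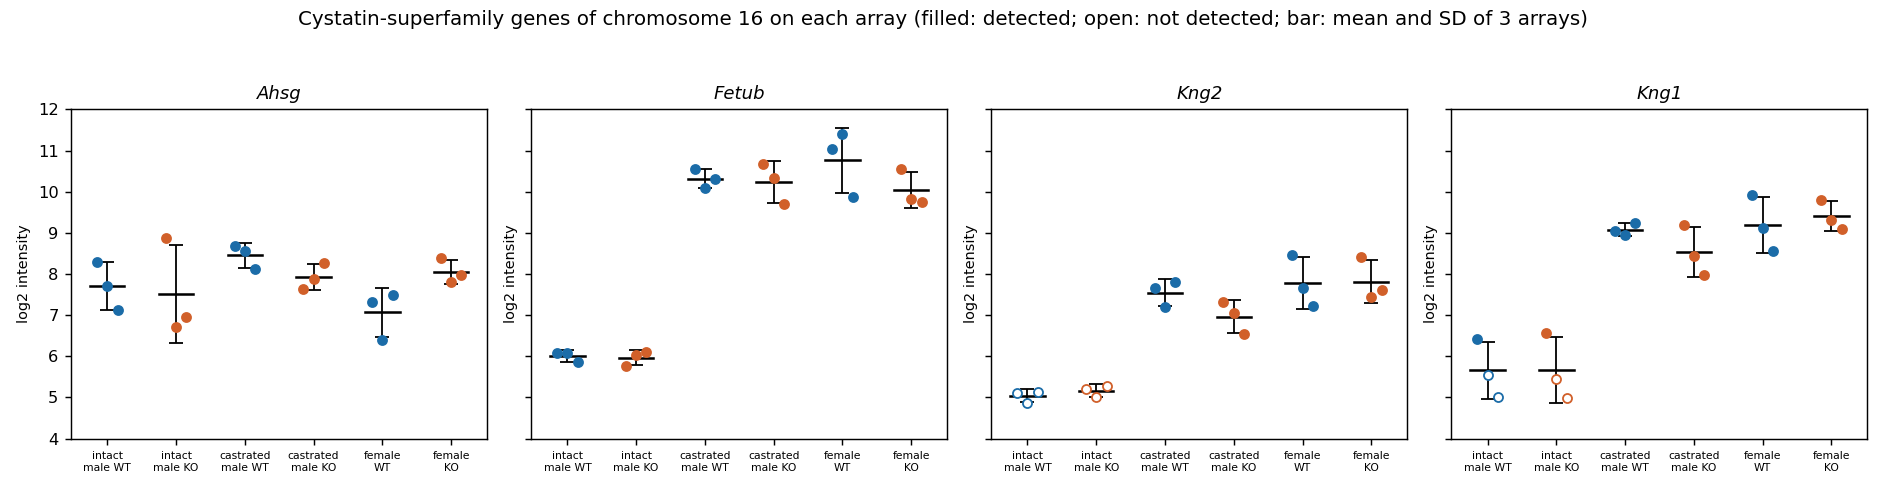
Level in log2 intensity (vertical axis) of Ahsg, Fetub, Kng2 and Kng1, cystatin-superfamily genes of chromosome 16, on each array by group. Filled points are detected, open points not detected, and bars are the mean and SD of 3 arrays. Fetub and both kininogens are low in intact males and high in the other 4 groups, while the groups of Ahsg overlap.

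Genes of the pathways around single members were called in small numbers. Of 30 Wnt pathway genes tested, beside Frzb, 4 were lower and 1 higher in wild-type castrated males, where 6.1% and 4.61% of all genes were, with a median of -0.38 against -0.03 for all genes. The lower ones included the Wnt feedback genes Axin2 (-0.88, SE 0.22, limma adjusted p = 0.0137) and Nkd1 (-0.77, adjusted p = 0.0181) and the transcription factor Tcf7l1 (-0.60, adjusted p = 0.0239), and the higher one was the kinase Gsk3b (0.57, adjusted p = 0.0293). In wild-type females 3 were lower, Fzd5 and Lrp5, both receptors for Wnt ligands, and Tcf7l1 (-0.84, -0.64 and -0.55), and 0 higher, with a median of -0.23, where 4.82% of all genes were lower. In knockout castrated males 4 were lower and 1 higher, where 10.1% and 7.45% of all genes were. Lgr5 (-1.45) and Axin2 (-1.34) were among the lower ones. In knockout females 2 were lower, Fzd5 (-1.09) and Axin2 (-1.04), and 0 higher, where 4.77% and 5.52% of all genes were. With median scaling in place of quantile normalization, which moves the median of all genes between wild-type castrated and intact males from -0.03 to -0.16 and in knockout to -0.41, 0 of the Wnt genes were lower in wild type in either comparison. In knockout, median scaling took the 2 lower in females and the 1 higher in castrated males to 0. The counts also rest on single arrays. In wild-type castrated males the 4 became 0 without castrated array 1, 2 without castrated array 3, 2 without intact male array 2 and 1 without intact male array 3, and the 1 higher became 0 without any castrated array or intact male array 2 or 3. In wild-type females the 3 became 0 without female array 3 or intact male array 2 or 3, and 1 without any other wild-type female or intact male array. In knockout castrated males the 4 became 2 without castrated array 1.

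Of 10 genes of coenzyme A and pantetheine metabolism tested, beside Vnn3, 2 were higher and 2 lower in wild-type castrated males, where 4.61% and 6.1% of all genes were. Pank3, a pantothenate kinase, was 1.32 higher (SE 0.34, limma adjusted p = 0.0179) and Nudt7, which cleaves coenzyme A, 0.77 higher (adjusted p = 0.0139). Slc5a6, which imports pantothenate, differed by -0.91 (adjusted p = 0.0104), and the fourth call was Dcakd (-0.36, adjusted p = 0.0367). In wild-type females Nudt7 was 1.03 higher (adjusted p = 0.00144) and Slc5a6 differed by -0.78 (adjusted p = 0.0258). With median scaling none of these wild-type calls was made. In wild-type castrated males the higher count became 0 without castrated array 1 or intact male array 2 and 1 without castrated or intact male array 3, and the lower count 0 without castrated array 1 or intact male array 3 and 1 without castrated array 3 or intact male array 1. The lower call in females was lost without female array 2 or 3 or intact male array 3. Of 9 genes of lipid loading onto CD1d and of natural killer T cells tested, beside Cd1d1, 0 were called in wild type in either comparison. In knockout castrated males B2m, the light chain that pairs with CD1d, differed by -0.64 (adjusted p = 0.00859) and the lipid-transfer precursor Psap by -0.27 (adjusted p = 0.0265). In knockout females the protease gene Ctsl was at least 1.27-fold higher (adjusted p = 0.0416), a call lost without any 1 of 9 arrays. The 2 knockout castrated male calls became 1 without castrated knockout array 3 or knockout intact male array 1 or 2.

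Among genes that make, convert or bind steroid hormones, 10 of 31 were tested. Of all genes 4.61% were called higher in wild-type castrated males and 5.31% in wild-type females. In wild-type castrated males 3 were higher and 0 lower: Hsd17b7, which acts in estradiol and cholesterol synthesis (2.35, SE 0.35, limma adjusted p = 0.000262), Hsd17b1, an estradiol-forming enzyme (1.11, adjusted p = 0.00831), and Fkbp4, a chaperone of steroid receptors (0.50, adjusted p = 0.0184). Hsd17b7 was also 2.25 higher in wild-type females (adjusted p = 0.000315), the single call of the list there. With median scaling the count in wild-type castrated males was 1. In knockout castrated males 5 were higher and 0 lower, where 7.45% and 10.1% of all genes were. In knockout females 1 was higher and 0 lower, where 5.52% and 4.77% of all genes were. The 5 ran from 3 to 5 over the arrays left out and became 0 with median scaling, where 2 were lower. The estrogen receptor gene Esr1 was detected on 1 of 18 arrays, and Esr2 and the progesterone receptor gene Pgr on 0. The androgen receptor gene was not analysed here.

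The Ephb6 knockout moved none of the 9 genes past the threshold. Of the 9 genes 0 were called in any of the 3 conditions, in the mean effect over them, or in the 3 differences between the effects. Of all genes 0 (0%) were called in each but the mean effect, where 1 gene, Ephb6 itself, was called (0.00964%). At an unadjusted p under 0.05 limma gave 1 of the 9 in castrated males, 1 in females, 0 in intact males and 1 in the mean effect, where all genes gave 651, 291, 275 and 397. The median knockout effect over the 9 was 0.02 in castrated males, -0.05 in females and -0.04 in intact males. The intervals leave room for changes: the half-width was smallest in Nrep, whose effect in females was -0.23 (95% confidence interval -0.67 to 0.20), and widest in Obp2a, at 0.45 in females (-0.92 to 1.83). That Obp2a value was 1.20, 0.23 and -0.08 without knockout female array 1, 2 or 3 and 1.42, -0.21 and 0.15 without wild-type female array 1, 2 or 3. Data were simulated with the spread of each gene, equal on all arrays. In them 100 genes were changed by 1 in log2 in knockout castrated males and 100 by 2. Of these 68% and 98% were called, with 12 false calls among the unchanged genes. So many changed genes ease the adjusted threshold, and the real castrated knockout array 1 had a weight of 0.16. These shares therefore do not carry over to the 9 genes. In the real data Ephb6 itself, at -1.41 in castrated males, was not called there (limma adjusted p = 0.386). The SE of that comparison was 0.66 in Obp2a and 0.42 in Xrra1, against a median of 0.206 over all genes.

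Xrra1 and Obp2a had the larger knockout effects in castrated males and in the mean, and which of them was larger depended on single arrays. In castrated males Xrra1 was 1.13 higher in knockout (SE 0.42, 95% confidence interval 0.25 to 2.01, limma adjusted p = 0.751), and all 3 knockout arrays lay above all 3 wild-type arrays. Without the dim castrated knockout array 1 the difference was 0.75, and without wild-type castrated array 3 it was 0.70. In females it was 0.62 (adjusted p = 1), 0.16 without knockout female array 1, and 0.34 or 0.97 when wild-type female array 2 or 3 was left out. Its mean effect was 0.64 (95% confidence interval 0.13 to 1.15, unadjusted p = 0.0161, limma adjusted p = 0.979), 0.52 and 0.49 without either of these arrays in turn. Obp2a was also higher in knockout castrated males, by 1.09 (95% confidence interval -0.28 to 2.47, adjusted p = 0.751), with no overlap of arrays and 1.07 without castrated knockout array 1. Its mean effect was 0.63 (95% confidence interval -0.16 to 1.43, adjusted p = 0.979), 0.88 without knockout female array 1, and 0.96 or 0.41 when wild-type female array 1 or 2 was left out.

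Ms4a10 and Fetub had the other larger knockout differences. Ms4a10 was 0.65 higher in knockout females, with no overlap of arrays, and 0.41 higher without knockout female array 1. It differed by -0.64 in knockout intact males, where arrays overlapped, and by -0.22 without wild-type intact male array 1 and -0.41 without knockout intact male array 2. The difference between these 2 effects was 1.29 (95% confidence interval 0.31 to 2.27, unadjusted p = 0.0125, limma adjusted p = 1), and 0.87 to 1.52 over the arrays left out. Fetub differed by -0.73 in knockout females (95% confidence interval -1.38 to -0.08, limma adjusted p = 1), where 1 wild-type array lay inside the range of the knockout arrays, by -0.98 without knockout female array 1, and by -0.42 or -1.17 when wild-type female array 2 or 3 was left out. For Nrep the knockout effect was -0.27 in castrated males, -0.23 in females and 0.31 in intact males, and the differences from intact males of -0.58 and -0.54 between these effects did not pass (adjusted p = 0.966 and 1). Without wild-type intact male array 1 they were -0.34 and -0.30 and the effect in intact males 0.07. Leaving out other single arrays gave Nrep effects of 0.14 in intact males (without knockout array 2), -0.11 in females (without wild-type array 2) and -0.47 to -0.15 in castrated males.

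**Figure D4:**
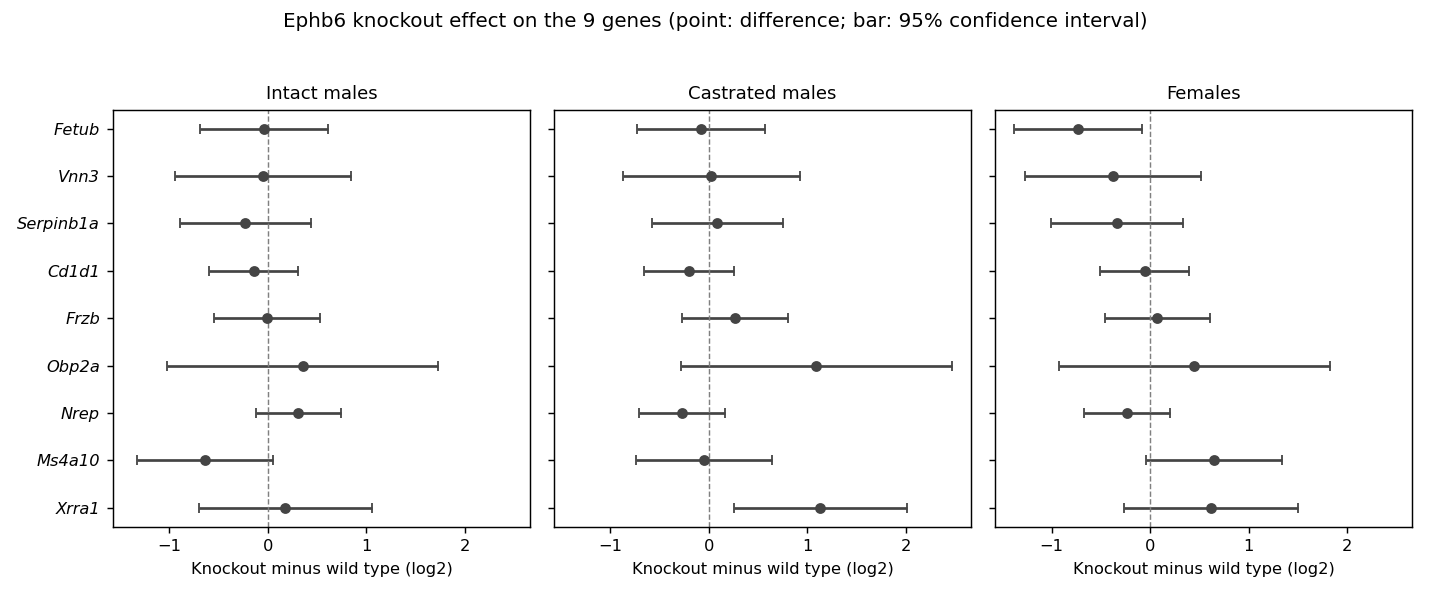
Knockout minus wild type in log2 (horizontal axis) for the 9 genes in intact males, castrated males and females. Points are the differences of the limma fit and bars their 95% confidence intervals. The intervals of Xrra1 in castrated males and of Fetub in females alone do not reach 0, and neither passed after adjustment over 10375 genes.

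Over the 18 arrays, the genes outside the set whose profile lay nearest to the median profile of the 9 were Acpp (an acid phosphatase), Lypd6, Hamp (the iron regulator hepcidin), Pik3c2g, 4930486L24Rik and Adh7 (an alcohol dehydrogenase), with mean absolute differences of 0.45, 0.55, 0.62, 0.67, 0.71 and 0.77. Acpp was the nearest gene to 6 of the 9, at 0.44 for Fetub, 0.45 for Nrep, 0.51 for Cd1d1, 0.53 for Frzb, 0.63 for Vnn3 and 0.64 for Serpinb1a. It averaged 9.09 in wild-type castrated males and 8.68 in wild-type females and was detected on no intact male array. Obp2a was nearest to Pik3c2g (0.88), Ms4a10 to Kng1 (0.54) and Xrra1 to Spry3 (0.69). Within the set the distance from the median profile was 0.86 in Obp2a, 0.72 in Ms4a10 and 0.57 in Xrra1, and 0.13 to 0.38 in the other 6.

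The genes lie on chromosomes 2, 3, 7, 10, 13, 16, 18 and 19, with Frzb and Obp2a both on chromosome 2. Of the 18 nearest tested neighbours, 1 on each side, 3 were called, all higher, in wild-type castrated males (4.61% of all genes were called higher): Kng2 beside Fetub, Stard4, a cholesterol carrier, beside Nrep (1.72, limma adjusted p = 9.09e-05) and Gm38405 beside Xrra1 (1.20, adjusted p = 0.0238). The same 3 were called in wild-type females, where Stard4 was 0.85 higher (adjusted p = 0.0255) and Gm38405 1.60 higher (adjusted p = 0.00314). In knockout castrated males 5 were called higher (Kng2, Serpinb6b, Lcn10, Stard4 and Gm38405) and 2 lower (Epb41l4a and Ms4a7), where 7.45% and 10.1% of all genes were, and in knockout females 2 were higher, Kng2 and Gm38405. Both neighbours of Vnn3, Cd1d1 and Frzb stayed between -0.63 and 0.24 in the 2 wild-type comparisons, and none of these 6 genes was called in any of the 4.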

How the data were processed

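Adrenal RNA was hybridised to Illumina bead arrays after RNeasy purification and labelling as biotinylated cRNA, per the labels' protocols, and the submitters' processing notes name GenomeStudio. Per the file headers, the deposited table gives for each probe and array an average bead intensity, not normalized between arrays, and a detection p-value. The authors' own normalized intensity table, on a linear scale by a method not stated, served as an alternative.

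Signals were corrected for background and quantile-normalized by neqc (limma 3.58.1, R 4.3.3) with an offset of 16 and negative controls taken from the detection p-values. The filter kept 15717 probes with 1 gene symbol, and each gene took the one of highest mean. Per the platform annotation 34885 probes have 1 symbol, 18 several and 10378 none. Of the first, 34807 were matched to RefSeq and 0 symbols changed. A single limma fit of all 18 arrays (12 residual and 6.2 prior degrees of freedom, intensity trend) gave every contrast, adjusted by Benjamini-Hochberg over 10375 genes. The fit was tested on simulated data. The median SE of a 2-group difference was 0.206, and 3 arrays per group limit the precision. The arrays' slides are not known, so no batch was fitted, and no pair of arrays was identical (highest correlation 0.993).

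The members, the gene lists and the rule for named genes were chosen with earlier results of these data known. Named were the members, Ephb6, X-zone markers, up to 4 genes of each list described by smallest p, nearest profiles and chromosomal neighbours. Ahsg in females, Sfrp1 and the relatives that were not detected were named after their values were seen. Alternatives were no background correction, an offset of 50, median scaling, the authors' values, other filters (none, or detection on at least 9 arrays), the mean of a gene's probes, array weights, no trend, a replicate block, and leaving out each array. The alternatives for the counts of pathway and marker lists were added after seeing the data.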

Additional observations from a re-analysis of the deposited data

How the results depend on the processing

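Each result was recomputed under 28 alternatives, 18 of which left out 1 array. In the castrated male and female differences from intact males, all 9 genes kept their direction and their call in both genotypes under every alternative run, and 0 of the 9 were called for any knockout effect or difference of knockout effects. Between females and castrated males in wild type 1 gene, Xrra1, was called with array weights (1.24, limma adjusted p = 0.0476) against 0 otherwise. In knockout the single call, Ms4a10, became 0 without castrated knockout array 2, without castrated knockout array 3 and without knockout female array 1 (limma adjusted p = 0.0627, 0.0775 and 0.0981), so the count over the arrays left out ran from 0 to 1. The cause was not tested. The Obp2a difference turned in wild-type females against castrated males without wild-type female array 2 (0.09; range over the arrays left out -1.54 to 0.09), and its knockout effect in females without that array (-0.21) or knockout female array 3 (-0.08), in a range from -0.21 to 1.42. Without background correction the differences were smaller, 2.80 for Fetub and 1.07 for Xrra1 between wild-type castrated and intact males. Over all genes, the calls between wild-type castrated and intact males ran from 407 with median scaling to 2617 with array weights (1111 as reported), and those between wild-type females and intact males from 314 to 2257 (1051). In knockout they ran from 979 without knockout intact male array 2 to 2783 with array weights (1818) and from 318 to 2048 (1068). Between females and castrated males they ran from 7 to 334 in wild type (34) and from 83 to 595 in knockout (159). The knockout effect gave 0 to 3 calls in intact males (0), 0 to 1 in castrated males (0) and 1 to 6 in the mean effect (1).

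The labels number the arrays of each group 1 to 3. Same-numbered arrays did not deviate together: of 45 pairs 6 correlated above 0.1 (range -0.232 to 0.233). With the replicate number as a block, 9 of the 9 genes were called in each comparison with intact males, 0 for the knockout effects, and 1068 genes were called between wild-type castrated and intact males. Signals near background limit what is said of Obp2a, Xrra1, Frzb and Serpinb1a in intact males. Fetub and Ms4a10 were detected there but dim, so the sizes of their differences also lean on the background correction. Without it, wild-type castrated males were 2.80 and 1.55 above intact males.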
